A study of Rattus norvegicus and Mus musculus with 61 samples.

Results

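The comparison is between the cortex of rats killed 21 d after a fluid percussion blow to the brain (3 arrays) and the cortex of rats killed 21 d after sham surgery (2 arrays), and it asks what was left of the acute response by then. The 5 arrays were taken by their labelled species, treatment and time from the 61 samples of the series, of which 39 are rat arrays. The injured animals were male Sprague-Dawley rats of about 400 g under sodium pentobarbital that received a brief pressure pulse of 2.5 atm, and the tissue taken was parieto-occipital cortex, in a disk of 7 mm around the impact that held the contusion. The sham rats had the same anaesthetic and sham surgery, and gave a disk of that size from the same cortex. Each array held RNA from 1 rat without pooling, so the arrays are separate animals. Further rat arrays came from naive cortex (3 arrays) and from injured and sham cortex at 30 min, 4 h, 8 h, 24 h and 72 h. The titles also carry a letter whose meaning they do not give: it is b for injury replicate 1 and a for the other 4 arrays at 21 d.

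A blow to the cortex kills neurons, opens vessels and starts an inflammatory response in which resident microglia, incoming neutrophils and monocytes, and reactive astrocytes express chemokines, acute-phase proteins and matrix proteins. Much of this subsides over days to weeks, while microglia and macrophages at a contusion can stay activated and carry major histocompatibility complex class II molecules, which present peptides to helper T cells. Immediate early genes are a separate readout, since neurons switch them on within minutes of strong activity and off again soon after.

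Depth does not apply to arrays, and their small number limits the precision here. The deposited intensities had the same trimmed mean on every rat array (800.6 to 801.2). Median intensities at 21 d ran from 281 to 319. The 5 arrays correlated with each other about as well across groups (0.946 to 0.958) as within the injured group (0.947 to 0.959) or between the sham arrays (0.954), over probe sets on a log2 scale. The ratios of 3′ to 5′ control probe sets were 0.927 to 1.48 for actin and 0.969 to 1.12 for GAPDH, the highest actin ratio being that of injury replicate 1. Elsewhere in the time course 4 arrays stood apart, with median correlations to the other rat arrays of 0.498 to 0.78, at 30 min and 4 h, and none of them is a 21 d or 72 h array. Markers of brain tissue were high in all 5 arrays: the synaptic gene Snap25 read 8142 to 12911, the neurogranin gene Nrgn 10703 to 15464, the myelin gene Mbp 16420 to 21943 and the astrocyte transporter gene Slc1a3 6471 to 6786. The probe sets of other forebrain markers read lower, with Camk2a, a kinase gene of excitatory neurons, at 181 to 373, the glutamate transporter gene Slc1a2 at 271 to 470 and the dopamine receptor gene Drd1 at 291 to 505. Gfap, the usual astrocyte marker, was not analysed here. The choroid plexus marker Ttr read 974, 689 and 1336 in the injured cortex but 528 and 18073 in the sham cortex, so sham replicate 2 carried far more of it than the other 4 arrays.

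No gene passed the test at 21 d. Of 4091 genes, limma with Benjamini-Hochberg adjustment over all of them gave 0 with an adjusted p below 0.05 (a share of 0%), and the smallest adjusted p was 1. An unadjusted p below 0.05 was reached by 50 genes (1.22%), 36 of them higher (0.88%) and 14 lower (0.342%) in injured cortex. All 3 injured arrays lay above both sham arrays for 402 genes (9.83%) and below both for 523 (12.8%). The median difference over all genes was -0.03 on the log2 scale, and estimates ran from a fall of -1.82 to a gain of 2.56. The precision was modest, with a median standard error of 0.51 and a median 95% interval of 1.04 to either side, or 2.06-fold. The interval excluded a change of 2-fold in either direction for 1107 genes (27.1%) and a change of 4-fold for 3537 genes (86.5%). With limma's array weights, which give less weight to noisier arrays, 6 genes passed (Lsamp, Ints13, Ly86, Cd74 and Asah1 higher, Fos lower) and 398 had an unadjusted p below 0.05. In bulk tissue fewer cells of a type and less RNA per cell cannot be told apart. The p-values here rest on the spread between single animals within groups, pooled over all 39 rat arrays. That pool includes the 4 arrays that stood apart, so the spread is not that of the 21 d animals alone. Where no gene differs, a share equal to the threshold of 0.05 is expected on average, and the 1.22% here was under it. The p-values of this fit may therefore be too large for the 21 d animals. Without the 4 arrays that stood apart 127 genes had an unadjusted p below 0.05, and 248 did when the fit held only the compared groups. Neither setting gave a gene with an adjusted p below 0.05.

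The acute response was large at the earlier times in the same fit. Against their own shams, 1 gene rose at 30 min (the chemokine gene Ccl3, 0.0244% of the genes tested). At 4 h 120 rose (2.93%) and 84 fell (2.05%), and at 8 h 25 rose (0.611%) and 4 fell (0.0978%). At 24 h 11 rose (0.269%), and at 72 h 86 rose (2.1%) and 27 fell (0.66%). These made 318 different genes, and 0 of them passed at 21 d. The 21 d contrast shares no array with the earlier ones. The 86 genes that rose at 72 h had a median difference of 2.20 then and 0.12 at 21 d, with 62 of them above 0 at 21 d, against 1879 of all 4091 genes (45.9%). The 95% interval at 21 d lay wholly below the 72 h estimate for 83 of the 86 genes. For 68 of the 86 the log2 difference at 21 d was less than 0.25 times that at 72 h. Both counts leave out the error of the 72 h estimates, and the genes were picked by their test at 72 h. A contrast between the times, which carries both errors, passed for 6 of the 86 and had an unadjusted p below 0.05 for 71 (limma). The 27 genes that fell at 72 h went from a median of -1.64 to -0.04, the 25 rises of 8 h from 2.79 to 0.12, the 11 rises of 24 h from 2.96 to 0.31 and the 120 rises of 4 h from 1.71 to 0.00. The number of calls at 72 h hung on single arrays: it was 326 without injury replicate 1 of that time, 41 without injury replicate 2, 18 without injury replicate 3, 19 without sham replicate 1 and 22 without sham replicate 2. The median 21 d difference of the rises called in those settings was between 0.04 and 0.39. Without the 4 arrays that stood apart, Ccl3 was no longer called at 30 min, and the calls were 37 higher and 7 lower at 4 h, 59 higher and 14 lower at 8 h, 30 higher and 4 lower at 24 h, and 217 higher and 159 lower at 72 h.

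**Figure D1:**
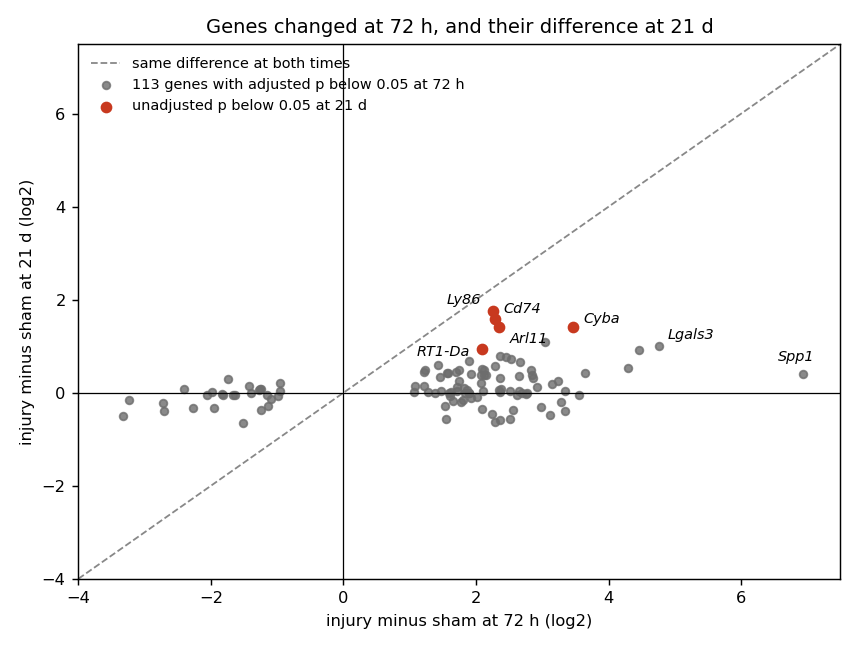
Each point is 1 of the 113 genes that passed the test at 72 h, with the log2 difference between injury and sham at 72 h on the horizontal axis and at 21 d on the vertical axis; the dashed line marks equal differences. The genes lie along 0 on the vertical axis (medians 0.12 for the rises and -0.04 for the falls), and the 5 red points are the genes with an unadjusted p below 0.05 at 21 d.

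Spp1, the gene of osteopontin, a phosphoprotein that macrophages secrete in damaged tissue, had the largest rise of any earlier time. It read 5483, 10395 and 17506 in injured cortex at 72 h, against 71.2 and 92.5 in the shams. At 21 d it read 98.7, 66.2 and 206 in injured cortex and 78 and 89 in sham cortex. The groups overlapped, only injury replicate 3 standing above both shams by more than a small margin. The difference had gone from 6.94 ± 0.66 (SE, log2, 123-fold) at 72 h to 0.41 ± 0.66 at 21 d, and the change between the times was -6.54 ± 0.94 (limma, adjusted p = 0.000247).

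A contrast of the 21 d with the 72 h effect passed for 7 genes of 4091 (0.171%), 6 of them rises of 72 h; against 4 h it passed for 2 genes (0.0489%), against 8 h for 4 (0.0978%) and against 24 h for 3 (0.0733%). Besides Spp1 these were the genes for galectin-3 (Lgals3, a macrophage lectin), lysozyme (Lyz2), the RNA-editing enzyme Apobec1, heme oxygenase (Hmox1, which breaks down heme after bleeding) and topoisomerase II alpha (Top2a, made by dividing cells). Hmox1 was 10.1-fold up at 72 h and read 502, 649 and 498 at 21 d against 545 and 519 in sham cortex. Lyz2 was 7.57-fold up at 72 h and read 749, 797 and 585 against 656 and 644. Top2a was 7.88-fold up at 72 h and read 234, 197 and 193 against 244 and 270. The injured arrays thus overlapped the shams for Hmox1 and Lyz2 and lay below them for Top2a. Lsamp, the limbic system-associated membrane protein gene, differed in the other direction. How many genes pass this contrast varied with single arrays, from 1 without either 21 d sham array to 6 without injury replicate 2. Spp1, Lyz2 and Lsamp still passed without injury replicate 3 of 72 h, but Spp1 alone of the 7 passed without either sham array of that time.

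Lgals3 had the largest 21 d difference of these 6 rises. It read 265, 357 and 339 in injured cortex at 21 d and 158 and 159 in sham cortex. All injured arrays were above both shams and above the naive arrays (92.3, 238 and 114), and 2 of the 3 were above all 19 uninjured rat arrays, whose highest was 332. The difference was 1.01 ± 0.54 (2.01-fold, unadjusted p = 0.0742, adjusted p = 1), against 4.76 ± 0.54 (27.1-fold) at 72 h. Apobec1 read 13.2, 118 and 131 against 55.2 and 25.2, so injury replicate 1 was the lowest of the 5 and the other injured arrays the highest. Its difference was 0.91 ± 0.53 (unadjusted p = 0.0924).

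Some chemokine and neutrophil genes of the first hours were at the floor of the measurement at 21 d, which was set at an intensity of 32.1. Ccl3 had reached a log2 difference of 5.69 at 4 h, and all 5 arrays at 21 d read below the floor (14.9, 9.86 and 20.9 against 12.7 and 19.9). The neutrophil chemokine gene Cxcl2, which was 3.82 up at 4 h, was also below it on all 5. Ccl2, which draws monocytes, was 4.62 up at 8 h and 3.56 at 72 h, and read 147, 115 and 148 against 123 and 160 at 21 d. The neutrophil protein gene S100a8 was 4.83 up at 8 h, and its difference at 21 d was 0.50 ± 0.87 with 2 injured arrays and both shams at the floor. S100a9, its partner, read 73.7, 68.8 and 76 against 50.4 and 31.2, with all injured arrays above the shams but within the range of the naive arrays (14.5 to 86.5). For Ccl3 the 21 d effect differed from the 4 h effect by -5.69 ± 0.88 (adjusted p = 0.00102).

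Acute-phase, stress and matrix genes followed the same course. Lcn2 (lipocalin 2, an iron-scavenging acute-phase protein) was 4.12 up at 8 h, 4.21 at 24 h and 3.15 at 72 h, and 0.18 ± 0.54 at 21 d (22.7, 44 and 60.8 against 46.3 and 32.9). Timp1, an inhibitor of matrix metalloproteinases, was up between 1.77 and 2.53 at the 4 times from 4 h to 72 h and stood at -0.20 ± 0.38 at 21 d (729, 1327 and 951 against 941 and 1332). Both overlapped between the groups. The heat shock gene Hspa1a was 3.87 up at 4 h and read 217, 181 and 123 against 220 and 230 at 21 d, all injured arrays being below the shams, replicate 1 only just. Plin2, which coats lipid droplets, was 4.30 up at 72 h and read 108, 117 and 126 against 78 and 83.8. Cd44, the hyaluronan receptor of reactive glia and leukocytes, was 3.79 up at 24 h and read 202, 186 and 265 against 63.1 and 163, a difference of 1.09 ± 0.66 (unadjusted p = 0.108). The injured arrays were above the shams for Plin2 and Cd44, but naive arrays reached 131 and 239.

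**Figure D2:**
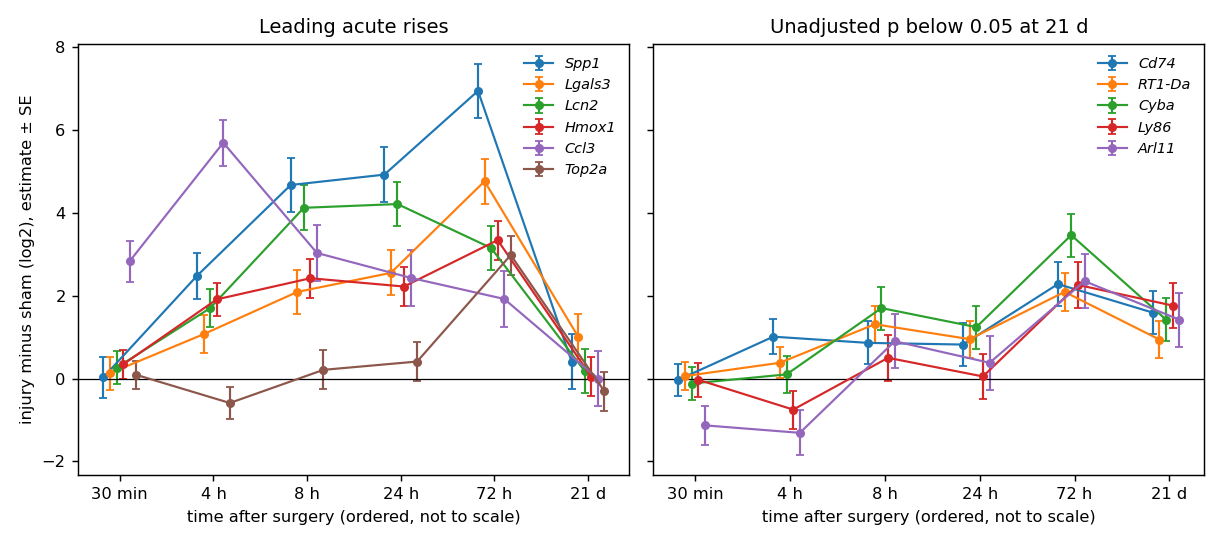
Log2 difference between injury and time-matched sham for 6 leading acute genes (left) and for the 5 genes called at 72 h with an unadjusted p below 0.05 at 21 d (right), as estimate ± SE at each of 6 times; times are spaced evenly and not to scale. On the left, Spp1 goes from 6.94 at 72 h to 0.41 at 21 d and Ccl3 from 5.69 at 4 h to 0; on the right, Cd74 goes from 2.28 at 72 h to 1.59.

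The largest falls of 72 h had smaller estimates at 21 d. The contrast between the times passed for 0 of the 27 falls of 72 h and had an unadjusted p below 0.05 for 24 (limma). How many falls were called hung on single 72 h arrays: it was 138 without injury replicate 1 and 3 without injury replicate 2. It was 0 without injury replicate 3 or without either sham array of that time. Itpka, a kinase of inositol trisphosphate in neurons, read 1591, 127 and 42.7 at 72 h and 1395, 2584 and 1953 at 21 d, against 1983 and 2283 in sham cortex. Rasl11b, a small GTPase gene, read 1094, 120 and 77.1 at 72 h and 1388, 1112 and 1382 at 21 d, against 1620 and 1383. Kcns1, a modulatory potassium channel subunit gene, read 47.3, 31.6 and 46.5 at 72 h and 348, 153 and 419 at 21 d, against 336 and 413. The groups overlapped at 21 d for all 3 genes. Apoe, the lipid carrier of astrocytes, was lower at 72 h by -3.33 through 1 array at 156 beside 11877 and 4104, and its 21 d difference was -0.49 ± 0.93. Ntrk3, the neurotrophin-3 receptor gene, and Pax4, a developmental transcription factor gene, were called lower at 4 h only and stood at -0.04 ± 0.89 and -0.53 ± 1 at 21 d.

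The earlier rises with the smallest p at 21 d were genes of class II antigen presentation and of myeloid cells. Of the 86 rises of 72 h, 5 had an unadjusted p below 0.05 in the same direction at 21 d: Cd74, RT1-Da, Cyba, Ly86 and Arl11 (against 36 of 4091, or 0.88%, over all genes). For Cd74, Ly86 and Arl11 the log2 difference was more than 0.5 times that at 72 h. All 5 were still called at 72 h without injury replicate 1 of that time and without the arrays that stood apart, Cd74, Cyba and RT1-Da were without injury replicate 2, and only Cyba was without any other 72 h array. None of the 5 passed at 21 d in the fit over all genes.

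Cd74 encodes the invariant chain, which loads onto class II molecules as they are made and guides them to the endosome. It read 389, 1042 and 1121 in injured cortex and 180 and 362 in sham cortex. The naive arrays read 298, 154 and 275. All injured arrays were above all of these, though injury replicate 1 exceeded the higher sham array by little, and injury replicates 2 and 3 exceeded all 19 uninjured rat arrays, whose highest was 426. The difference was 1.59 ± 0.52 (3.01-fold, 95% interval 0.53 to 2.64, unadjusted p = 0.00433, adjusted p = 1), against 2.28 ± 0.52 (4.85-fold) at 72 h. It was 1.09 without sham replicate 1 and 2.09 without sham replicate 2. The 3 other probe sets for Cd74 gave 1.4, 1.77 and 2.41. At those with 1.77 and 2.41 the groups overlapped, injury replicate 1 reading 20 and 174 against 21.4 and 192 in sham replicate 2. At the one with 1.4 it read 236 against 234, so the groups separated only just. Against naive cortex the injured cortex was 1.72 ± 0.46 higher (unadjusted p = 0.000752) and the sham cortex 0.13 higher (unadjusted p = 0.796).

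RT1-Da encodes the alpha chain of a rat class II molecule. It read 746, 1130 and 1827 in injured cortex, 506 and 713 in sham cortex and 602, 486 and 377 in naive cortex. The injured arrays were above the rest, again with replicate 1 closest to the shams. The difference was 0.94 ± 0.45 (1.92-fold, unadjusted p = 0.0421), and it was 0.58 with the mean of both probe sets (unadjusted p = 0.143), since the second probe set gave 0.23. RT1-Bb, a beta chain gene of the other class II molecule, read 425, 603 and 406 against 283 and 395. The groups did not overlap, and the difference was 0.49 ± 0.34 (unadjusted p = 0.157). RT1-Ba read 742, 613 and 1074 against 768 and 636, and RT1-Db1, the beta partner of RT1-Da, read 347, 264 and 268 against 313 and 342, so both overlapped; their differences were 0.17 ± 0.65 and -0.17 ± 0.37. At 72 h RT1-Da, RT1-Bb and RT1-Db1 had all passed, at 2.09, 1.23 and 1.65.

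Class II genes are known to share promoter elements, the X and Y boxes, and the stretches before RT1-Da and RT1-Bb are shown because these genes had the larger differences of the 4 chain genes. They are the 200 bases before each annotated start, 5′ to 3′ along the gene, from RefSeq on build GRCr8: RT1-Da at chr20:4515215-4515414 on the plus strand and RT1-Bb at chr20:4604119-4604318 on the minus strand. Capitals mark the X box core CTAGCAAC and the Y box CTGATTGG, searched on both strands.
RT1-Da: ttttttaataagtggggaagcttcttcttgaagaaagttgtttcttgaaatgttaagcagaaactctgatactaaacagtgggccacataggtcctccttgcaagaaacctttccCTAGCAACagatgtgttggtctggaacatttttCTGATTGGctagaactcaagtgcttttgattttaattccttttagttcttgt
RT1-Bb: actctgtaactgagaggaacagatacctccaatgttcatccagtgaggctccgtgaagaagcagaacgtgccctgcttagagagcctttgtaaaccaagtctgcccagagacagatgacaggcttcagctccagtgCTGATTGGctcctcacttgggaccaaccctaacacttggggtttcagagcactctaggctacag
RT1-Da holds both motifs, 85 and 52 bases before the start counted from the first base of each. RT1-Bb holds the Y box, 64 bases before the start. The Y box letters were in the window of all 4 chain genes and in 2.9% of 33469 promoters, and the X box letters were in RT1-Da and RT1-Db1 and in 0.929% of promoters. These matches describe the letters only.

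Over the fixed list of antigen presentation genes, 2 of 17 measured members (Cd74 and RT1-Da) had an unadjusted p below 0.05, both higher, against 0.88% of all genes. The median difference was 0.15, with 12 above 0 (45.9% of all genes). All injured arrays were above both shams for 4 members and below for 1, against 9.83% and 12.8% of all genes. At 72 h the median was 0.86 and 5 members were called higher (2.1% of all genes). The class II peptide editors RT1-DMa and RT1-DMb stood at 0.05 ± 0.37 and 0.41 ± 0.42. The class I light chain gene B2m read 3683, 4587 and 4613 against 3872 and 3589, and the peptide transporter gene Tap1 stood at -0.15 ± 0.31. The list's summed intensity was 18688 to 22530 in injured and 18708 to 20668 in sham cortex, so the sums overlapped.

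Ctss, Cyba, Ly86 and Arl11 are the other myeloid genes among those with the smallest p. Ctss encodes cathepsin S, the protease that trims the invariant chain, and it read 8232, 10275 and 9360 in injured cortex against 5312 and 5819 in sham cortex. All 3 injured arrays were above all 19 uninjured rat arrays, whose range was 4359 to 8025. The difference was 0.73 ± 0.26 (1.66-fold, unadjusted p = 0.00745); at 72 h it was 0.24 ± 0.26 and not called. Cyba, a membrane subunit of the phagocyte oxidase, read 261, 620 and 492 against 133 and 194. The groups did not overlap, 2 of the 3 injured arrays exceeded all 19 uninjured arrays (up to 347), and the difference was 1.42 ± 0.52 (2.68-fold, unadjusted p = 0.0107), against 3.46 ± 0.52 (11-fold) at 72 h.

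Ly86 (MD-1, a partner of a Toll-like receptor relative on B cells and myeloid cells) read 162, 265 and 266 in injured cortex and 74.6 and 59.5 in sham cortex, a difference of 1.76 ± 0.55 (unadjusted p = 0.00325). Here the sham arrays were low: both were below all other uninjured rat arrays, and naive cortex read 149, 134 and 193. Against naive the injured cortex was 0.53 ± 0.49 higher. Arl11, a small GTPase gene of macrophages, read 178, 309 and 329 against 67.5 and 142, and naive arrays reached 216. Its difference was 1.42 ± 0.65 (unadjusted p = 0.0345), and 0.89 without sham replicate 1.

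**Figure D3:**
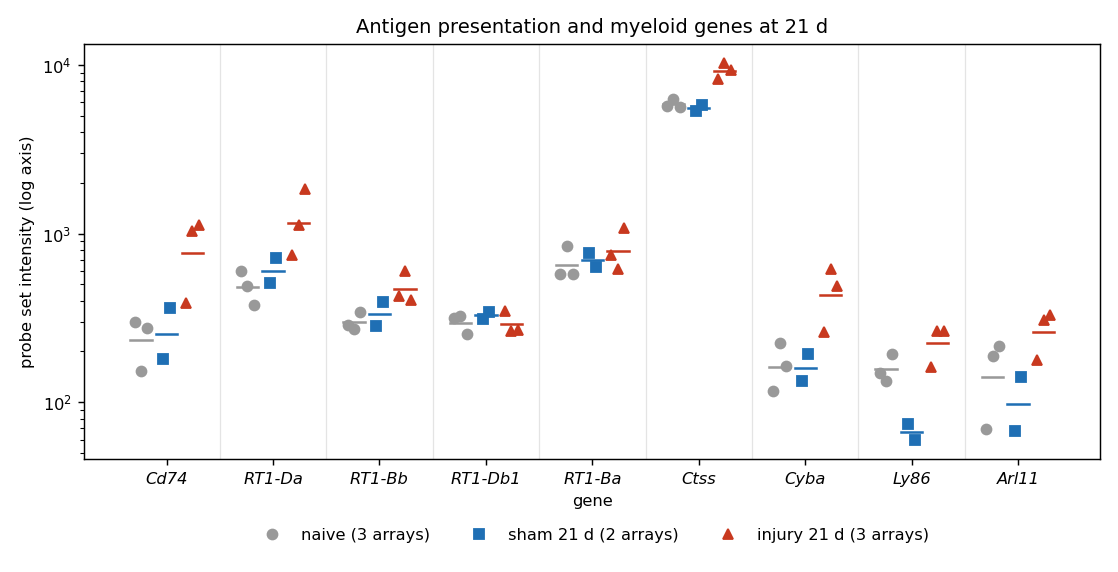
Probe set intensities (log axis) of 4 class II chain genes, Cd74 and 4 myeloid genes in the 3 naive, 2 sham 21 d and 3 injury 21 d arrays; each symbol is 1 rat and each bar the geometric mean of its group. Cd74 reads 389 to 1121 after injury and 154 to 362 in the others, and Ly86 is lowest in the shams (59.5 and 74.6).

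The wider set of microglia and macrophage markers had 1 member at an unadjusted p below 0.05. Of 18 measured members 14 were above 0 and 4 below (45.9% of all genes were above 0), and the member with the small p was Cyba. The median was 0.34, against 2.03 at 72 h, when 9 were called higher (2.1% of all genes). All injured arrays were above both shams for 4 members and below for 1, against 9.83% and 12.8% of all genes. The summed intensity of the list was 5539, 7622 and 6905 in injured cortex and 4981 and 6069 in sham cortex, with injury replicate 1 between the shams. Aif1 (Iba1, a microglial calcium-binding protein) read 300, 227 and 204 against 174 and 193, a difference of 0.39 ± 0.47. C1qb, a chain of the first complement component made by microglia, read 732, 1694 and 1926 against 791 and 755, at 0.79 ± 0.58 (unadjusted p = 0.182). Injury replicate 1 lay below both shams for C1qb while the other injured arrays were far above them. Complement C3 read 198, 293 and 457 against 139 and 206 and overlapped.

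Injury replicate 1 was the lowest of the 3 injured arrays for Cd74, RT1-Da, Ctss, Cyba, Ly86, Arl11, C1qb and the intermediate filament gene Vim. It also carries the b in its title and has the highest actin ratio, and their part in its values was not tested. Without it, Cd74 stood at 2.08 (unadjusted p = 0.000502), Cyba at 1.78 and RT1-Da at 1.26, and still 0 genes passed, with 70 at an unadjusted p below 0.05.

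The list medians of scar and astrocyte genes were close to the shams. The reactive astrocyte list had a median of 0.02 over 17 members (1.33 at 72 h, when 7 passed), with 9 above 0 and none at an unadjusted p below 0.05 in either direction. For 4 members all injured arrays were above both shams, and for 1 below, against 9.83% and 12.8% of all genes. Those above included Cd44, Hspb1 (0.60 ± 0.38) and Fabp7 (0.52 ± 0.59). The microglia and macrophage list had the same 2 counts. Vim read 1051, 1747 and 2416 against 900 and 1528, a difference of 0.49 ± 0.45 against 2.83 ± 0.45 (7.12-fold) at 72 h, and the groups overlapped. Lists of glial scar proteoglycans (median -0.02 over 12), fibroblast and matrix genes (0.04 over 31), and endothelial and pericyte markers (-0.14 over 15) had no member at an unadjusted p below 0.05. Cell cycle genes, at a median of 1 with 4 called higher at 72 h (2.1% of all genes), stood at 0.04 over 20 members. Annexins and S100 proteins went from 1.57 with 5 called higher at 72 h (2.1% of all genes) to 0.20 over 13. The interval of these single genes often allowed a 2-fold change. Small residues could thus not be detected with 5 arrays and a spread pooled over all rat arrays. The medians of the complement (0.04 over 14), interferon response (0.00 over 11) and cytokine and chemokine (-0.05 over 20) lists were also near 0, against 0.77, 0.70 and 0.64 at 72 h. Their only member at an unadjusted p below 0.05 was Cd55, which restrains complement on cell surfaces, at -1.30 ± 0.63. Lysosomal proteases and enzymes stood at 0.04 over 15, with Ctss and Asah1 at an unadjusted p below 0.05, both higher (0.88% of all genes).

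Neuronal, myelin and blood markers also lay near the shams. The 38 neuronal and synaptic genes had a median of -0.05 (-0.63 at 72 h, when 4 were called lower), with 14 above 0 and 24 below, and Homer1 was the 1 member at an unadjusted p below 0.05, on the higher side. Snap25 read 9110, 8142 and 10938 against 11013 and 12911, all injured arrays being lower, at -0.35 ± 0.66. The 14 oligodendrocyte and myelin markers had a median of -0.21, and Mbp read 18772, 16420 and 18156 against 21604 and 21943, at -0.29 ± 1.08. The beta-globin gene Hbb read 9851, 24262 and 12820 against 9776 and 9854, with injury replicate 2 far above the other 4. Red blood cell markers had a median of 0.21 over 5 (the anion exchanger gene Slc4a1 was at -0.62 ± 0.30, unadjusted p = 0.0454), choroid plexus and meningeal markers -0.26 over 10, and markers of other brain regions and pituitary -0.12 over 17. The 15 lists not yet described, of metabolism, stress, proteases, channels, receptors, ribosomal proteins and astrocyte homeostasis, had medians from -0.14 to 0.03 and no member at an unadjusted p below 0.05. Lymphocyte markers had a median of -0.53 over 13 members, 10 of them below 0 and none at an unadjusted p below 0.05. Over the 5 arrays the T cell receptor complex gene Cd3g read 69.6 to 268, Cd8a 28.6 to 60.9 and Cd4 314 to 544. On all 5 arrays 4 of the 13 members were below 202, the level used to filter dim probe sets.

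**Figure D4:**
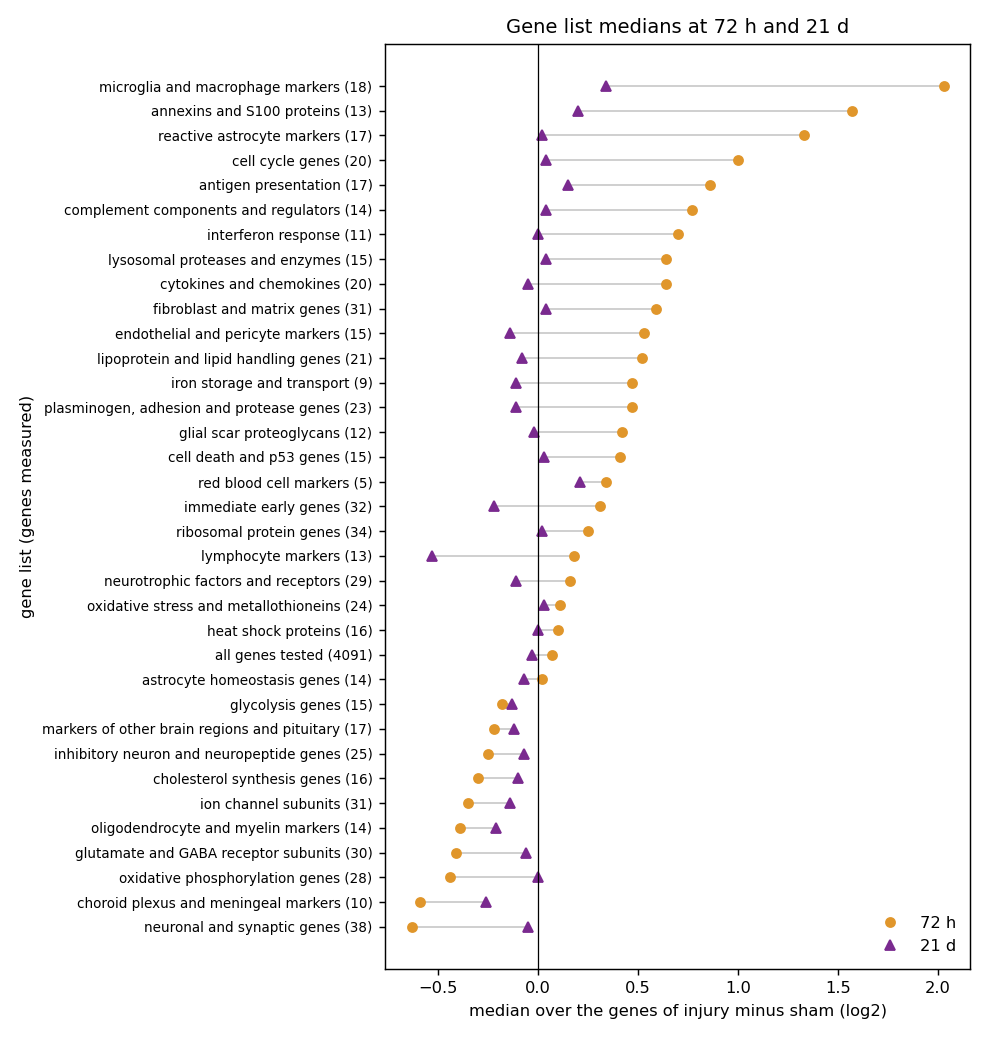
Median log2 difference between injury and sham over the measured genes of 34 lists and of all 4091 genes, at 72 h (circles) and 21 d (triangles); the number of genes measured is in brackets. Microglia and macrophage markers go from 2.03 to 0.34 and reactive astrocyte markers from 1.33 to 0.02, and lymphocyte markers (-0.53) and immediate early genes (-0.22) are among the lowest at 21 d.

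Most immediate early genes had lower estimates in the injured cortex, without a call. Of 32 measured, 4 had an unadjusted p below 0.05 on the lower side (Fos, Nr4a1, Junb and Dusp1) and 1 on the higher side (Homer1), against 0.342% and 0.88% of all genes. The median was -0.22, 26 members were below 0 (2212 of all 4091 genes), and all injured arrays were below both shams for 10 (12.8% of all genes). Against naive cortex the list median was 0.24 for the sham and -0.07 for the injured cortex (0.03 and 0.01 over all genes). Much of the list-wide difference thus lay in the 2 shams being high. None passed the adjusted test in the fit over all genes, and Fos passed with array weights. The list's summed intensity was 44267, 32749 and 28688 in injured cortex, 48274 and 50373 in sham cortex and 40564 to 46226 in naive cortex.

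Fos, whose protein is a subunit of the AP-1 transcription factor, read 2251, 1678 and 1268 in injured cortex and 4157 and 3339 in sham cortex. Naive cortex read 2726, 2752 and 2285. The injured arrays were below all of these, narrowly so for replicate 1. Over all 19 uninjured rat arrays the lowest value was 1283, and only 1 injured array was below it. The difference was -1.14 ± 0.42 (0.452-fold, unadjusted p = 0.0106, adjusted p = 1), and the other Fos probe sets gave -1.28 and -1.66. Against naive the injured cortex stood at -0.61 ± 0.38 (unadjusted p = 0.114) and the sham cortex at 0.53 (unadjusted p = 0.218), so the shams were on the high side and the injured on the low side. Against all sham and naive arrays as 1 control group the difference was -0.76 (unadjusted p = 0.0718).

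Nr4a1 (Nur77, an orphan nuclear receptor) read 2317, 1007 and 1218 against 4343 and 4935, and 3254, 4249 and 4432 in naive cortex. The injured arrays were below these sham and naive arrays by a clear margin, with a difference of -1.71 ± 0.64 (0.306-fold, unadjusted p = 0.0113). The 19 uninjured rat arrays of all times went down to 1133, and only 1 injured array was below that. Its second probe set gave -1.14. Junb, another AP-1 subunit, read 910, 512 and 659 against 1406 and 2287, and 1353 to 1722 in naive cortex. Again no injured array reached a 21 d sham or naive one, and the difference was -1.41 ± 0.60 (unadjusted p = 0.0251), with -1.28 from the second probe set. The difference was -1.06 without sham replicate 2 (unadjusted p = 0.176). Among the 19 uninjured rat arrays, however, Junb went down to 460, and 0 injured arrays were below that.

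Dusp1, a phosphatase that switches off MAP kinases, read 974, 582 and 468 against 1793 and 1711, and 1202, 984 and 996 in naive cortex. Its difference was -1.45 ± 0.67 (unadjusted p = 0.0387), and the other probe sets gave -1.59 and -1.98. As for Junb, 0 injured arrays were below all 19 uninjured rat arrays. Junb and Dusp1 had been called higher at 4 h, at 1.89 and 2.66, and they are the 2 genes of an earlier call with an unadjusted p below 0.05 in the opposite direction at 21 d. Arc, a synaptic plasticity gene, read 4613, 2974 and 2501 against 6113 and 7268, and Atf3, a stress-responsive transcription factor gene, read 261, 168 and 165 against 323 and 358. For both the groups did not overlap, at -1.04 ± 0.56 and -0.81 ± 0.45 (unadjusted p = 0.0715 and 0.0795). Egr1 read 13851, 9544 and 7202 against 13439 and 13098 on the probe set used, with injury replicate 1 the highest of the 5. Its other probe sets gave -0.81, -0.29 and -0.96, and only at the last did the groups not overlap. Injury replicate 1 was the highest of the injured arrays for Fos, Nr4a1, Junb, Dusp1, Arc, Atf3, Egr1 and Egr2.

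Promoters of activity-dependent genes often hold cAMP response elements, so the stretches before Nr4a1 and Dusp1 are shown, as 200 bases before the annotated start, 5′ to 3′, from RefSeq on GRCr8: Nr4a1 at chr7:134259938-134260137 and Dusp1 at chr10:17184653-17184852, both on the plus strand. Capitals mark the full element TGACGTCA and the variant TGCGTCA, searched on both strands; the variant was chosen after its letters were seen before Nr4a1.
Nr4a1: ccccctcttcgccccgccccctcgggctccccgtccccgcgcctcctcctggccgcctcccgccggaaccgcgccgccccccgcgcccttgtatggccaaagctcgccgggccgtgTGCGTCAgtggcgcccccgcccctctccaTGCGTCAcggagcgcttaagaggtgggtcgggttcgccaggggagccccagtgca
Dusp1: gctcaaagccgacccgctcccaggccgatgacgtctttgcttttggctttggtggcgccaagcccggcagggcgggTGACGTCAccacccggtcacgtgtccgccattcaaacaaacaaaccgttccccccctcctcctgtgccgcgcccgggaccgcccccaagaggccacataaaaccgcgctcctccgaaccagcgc
Nr4a1 holds the variant 84 and 55 bases before the start, and Dusp1 holds the full element 124 bases before it. Of the 32 list members, 23 had a promoter in the table used; the full element was in 2 of them (Crem and Dusp1) and in 1.46% of all promoters, and the variant was in 3 (Cebpb, Fosl1 and Nr4a1) and in 1.48%. At 21 d the differences of these 5 genes were -0.02 for Crem, -1.45 for Dusp1, 0.26 for Cebpb, 0.02 for Fosl1, which was below 202 on all 5 arrays, and -1.71 for Nr4a1. The matches describe the letters only.

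**Figure D5:**
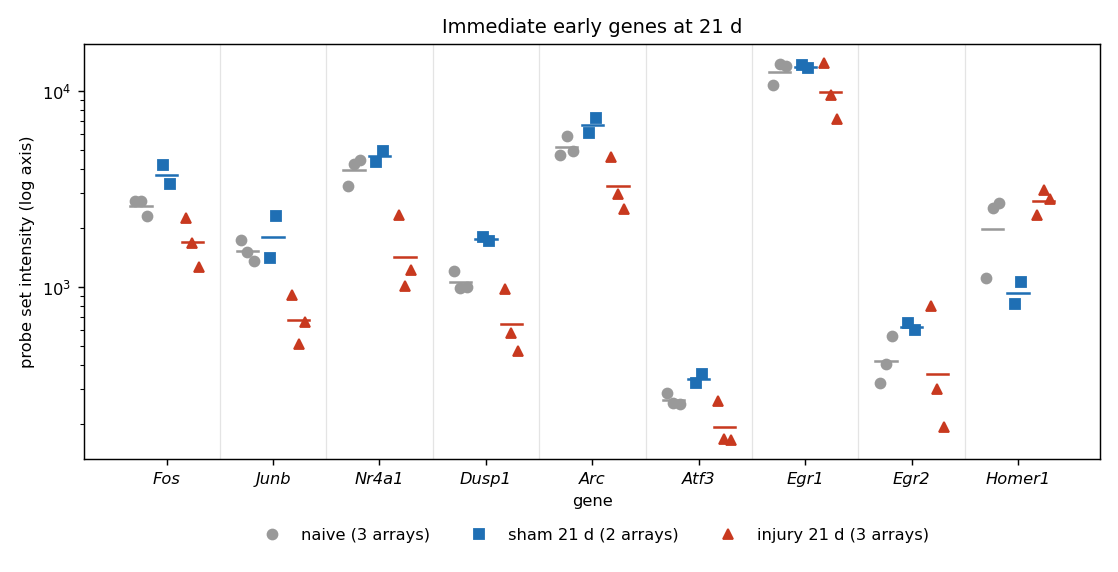
Probe set intensities (log axis) of 9 immediate early genes in the 3 naive, 2 sham 21 d and 3 injury 21 d arrays; each symbol is 1 rat and each bar the geometric mean of its group. Fos, Junb, Nr4a1, Dusp1, Arc and Atf3 have all injured arrays below both shams, Egr1 and Egr2 overlap, and Homer1 is lowest in the shams.

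Several of the largest gains rested on low sham values. Lsamp, a neuronal adhesion protein gene, had the largest gain of all genes: 381, 654 and 371 in injured cortex against 79.5 and 73.9 in sham cortex, a difference of 2.56 ± 0.70 (5.90-fold, unadjusted p = 0.000837, adjusted p = 1). Naive cortex read 282, 910 and 843, and both shams lay below all other uninjured arrays. The sham cortex was thus -2.97 against naive (unadjusted p = 0.000159), and the injured cortex -0.41 ± 0.62. With sham 21 d and naive arrays as 1 control group the difference was 0.78 (unadjusted p = 0.263).

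Ints13, an Integrator complex subunit gene, read 86.1, 161 and 109 against 23.6 and 19.8, and naive cortex read 95.6 to 151. Both shams were under the floor and were set to it, which gave a 3.58-fold estimate (95% interval 0.70 to 2.97 on the log2 scale). With the floor at the 25th percentile the log2 difference was 0.34 (limma, unadjusted p = 0.466). Homer1, the postsynaptic scaffold gene with an activity-induced short form, read 2327, 3122 and 2793 against 814 and 1057 on 1 of its 6 probe sets. The other 5 overlapped, and naive cortex read 1109, 2527 and 2683 on the first. Asah1 (acid ceramidase) read 170, 181 and 181 against 89.4 and 72.3, with 159 to 223 in naive cortex. Cyb5a (cytochrome b5) read 869, 1298 and 1003 against 776 and 173, so a single sham array made most of its difference of 1.51 ± 0.51. For these genes the injured cortex was within the naive range or close to it.

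The remaining genes with the smallest p on the lower side were weakly expressed or uneven. C8b, a terminal complement component gene, read 133, 50.9 and 31.8 against 197 and 193, at -1.70 ± 0.71. Nthl1, a DNA repair glycosylase gene, read 109, 80.7 and 122 against 264 and 244, at -1.31 ± 0.56. Aifm2, an oxidoreductase gene, read 472, 378 and 278 against 713 and 856 with both shams above all other uninjured arrays, and stood at 0.00 against naive. Its second probe set gave 0.25 and overlapped. Irs2, an insulin receptor substrate gene, overlapped between the groups on the probe set used (447, 93.4 and 79 against 432 and 558). Its other probe sets gave 0.12, -0.31 and 1.12, the last with all injured arrays above both shams. Their mean with the first gave -0.20 (limma, unadjusted p = 0.726). Vav2 read 332, 54.4 and 207 against 406 and 385, and naive arrays went down to 96.6.

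Set against naive cortex, neither 21 d group had a gene with an adjusted p below 0.05. At an unadjusted p below 0.05 the sham cortex had 80 genes (1.96%) and the injured cortex 57 (1.39%), of which 37 were higher. These comparisons share arrays with the main one. The higher genes of injured cortex, 37 of all 4091, held 6 of the 17 antigen presentation genes and 4 of the 18 microglia and macrophage markers. They held 1 of the 17 reactive astrocyte markers. The shams were also above naive: the antigen presentation median was 0.23 for sham and 0.39 for injured cortex. For microglia and macrophage markers it was 0.21 and 0.30, against 0.03 and 0.01 over all genes.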

How the data were processed

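The deposited rat values are probe set intensities on a linear scale, 1 array per rat, with each array scaled by the authors to the same trimmed mean, as the values show; the software behind them is not given in the sources used here. From 8799 probe sets, 59 control probe sets were left out. Values under the pooled 10th percentile (32.1) were set to it and log2 was taken. A probe set was kept where 3 or more arrays exceeded 202, the 40th percentile over all arrays (7162 kept). Names came from the platform annotation, updated through Entrez IDs to RefSeq: 7006 probe sets had 1 symbol, 308 several and 1426 none, and those with several or none were left out. Each gene took its probe set with the highest mean, giving 4091 genes.

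limma 3.58.1 in R 4.3.3 fitted 1 mean per group over all 39 rat arrays (26 residual and 6.51 prior degrees of freedom), with Benjamini-Hochberg adjustment over all genes and calls at an adjusted p below 0.05; all p-values in the report are limma's, two-sided. The floor compresses differences of dim genes. The fit was tested on simulated data. Genes were named by rule: where fewer than 8 passed in a direction, the 8 smallest p there, named as not called; the 12 largest rises and 6 largest falls of 4 h to 72 h; and, per list, up to 4 members with the smallest p, with textbook members. Lsamp and other genes of the contrast between times, and genes set beside these, follow from their counts and were chosen after their values were seen. The members and the 34 lists were chosen with earlier results of these data known. Replicate numbers in the titles were not used to pair the animals in the main fit. Deviations of same-numbered arrays correlated at -0.0338 and -0.00199. With 2 shams, whose deviations mirror each other, this could not show whether animals were paired. Alternatives changed the normalization, floor, filter, probe set rule, blocks, controls, weights and arrays used.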

Additional observations from a re-analysis of the deposited data

Results flagged for a closer look

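For 13 genes the injury effect at 21 d differed from the effect at an earlier time by a contrast between the times in the limma fit, with an adjusted p below 0.05; values are the 21 d effect minus the earlier effect on the log2 scale. Against 4 h, Ccl3 stood at -5.69 ± 0.88 (SE) and Nfkbia, the inhibitor of NF-kappa B, at -2 ± 0.41. Against 8 h, Emp1, a membrane protein of epithelia, stood at -3.85 ± 0.80, Lcn2 at -3.94 ± 0.77, Sdc4 (syndecan 4) at -2.43 ± 0.46 and Timp1 at -2.73 ± 0.53. Against 24 h, Lcn2 stood at -4.03 ± 0.77, Spp1 at -4.52 ± 0.94 and Timp1 at -2.73 ± 0.53. Against 72 h, Apobec1 stood at -3.55 ± 0.74, Hmox1 at -3.30 ± 0.67, Lgals3 at -3.76 ± 0.77, Lyz2 at -2.80 ± 0.51, Spp1 at -6.54 ± 0.94 and Top2a at -3.29 ± 0.66. Lsamp alone had a positive value, 4.56 ± 0.98 against 72 h, from a gain of 2.56 at 21 d and -1.99 at 72 h; its 72 h difference was not called, and its 21 d shams were the lowest of the uninjured arrays. Sdc4 read 3576, 2508 and 3128 in injured cortex at 21 d against 4160 and 4091 in sham cortex, and Emp1 568, 566 and 355 against 608 and 679, so for both all injured arrays ended below the shams.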

How the results depend on the processing

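The count of 0 genes at 21 d, and of 0 genes called both earlier and at 21 d, held in every alternative run except array weights, which gave 6 and 2 (Cd74 and Ly86). The replicate block gave 0 genes called at 21 d (74 at an unadjusted p below 0.05) and 9 for the contrast with 72 h, and moved the genes called at an earlier time from 318 to 284. That contrast, 7 genes in the report, gave 2 with quantile normalization, 4 when the fit held no other groups, 2 with a block for the letter in the titles, 104 with all sham and naive arrays as 1 control group, 28 without the arrays that stood apart and 465 with array weights. Leaving out single 21 d arrays gave 1 to 6, and single 72 h arrays 1 to 17. Pooling controls turned the sign of Ints13 (-0.02) and Cyb5a (-0.18) and brought Aifm2 to 0.00; Spp1, 0.41 in the report, ran from -0.04 without injury replicate 3 to 0.77 without injury replicate 2. The causes were not tested. The alternatives that left out 72 h arrays or joined the sham 21 d and naive arrays were chosen after seeing the data. With 5 arrays at 21 d and the spread pooled over all 39 rat arrays, differences under about 2-fold at 21 d are mostly out of reach.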

Other observations

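Some genes differed from naive cortex in a 21 d group in ways that the comparison of injury with sham does not show. The immunoproteasome gene Psmb8 read 573, 733 and 508 in injured and 485 and 621 in sham cortex, against 299, 106 and 310 in naive cortex. Its differences from naive were 1.48 ± 0.51 (SE, log2, limma unadjusted p = 0.00626) for injury and 1.36 (unadjusted p = 0.0224) for sham. Nfkbia read 441, 276 and 240 in injured and 384 and 559 in sham cortex, against 193, 233 and 255, and its differences from naive were 1.04 for sham (unadjusted p = 0.00212) and 0.45 ± 0.28 for injury (unadjusted p = 0.116), the injured arrays overlapping the naive ones. The interferon-induced membrane protein gene Ifitm3, called higher at all 4 times from 4 h to 72 h, read 1127, 1641 and 1241 in injured, 897 and 1037 in sham and 703, 818 and 650 in naive cortex, so the 3 groups were in that order without overlap; its injury minus sham difference at 21 d was 0.45 ± 0.28 (unadjusted p = 0.114). None had an adjusted p below 0.05 against naive, and these genes were picked after their values were seen.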
